A study of Tupaia belangeri with 2 samples.

Results

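PAX6 and GLI3 are 2 of the 23975 gene models counted in single cells of tree shrew embryo brain, and they were taken by their names, each of which belongs to 1 model (evm.model.chr18.150 for PAX6 and evm.model.chr6.174 for GLI3). Both are described across dividing cells, radial glia-like cells that divide little, and neurons. The material was the whole brain of 2 embryos at about 4 to 5 weeks after conception, with dura mater and blood vessels removed. Each embryo gave 1 droplet library (10x Chromium 3′ kit, v3 chemistry), and both belong to a single untreated condition, so n = 2 embryos throughout and every comparison is between kinds of cells inside the same embryos. The counts are unique molecular identifiers (UMIs), each marking a captured transcript.

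PAX6 is a transcription factor with a paired domain and a homeodomain. It is known for its part in eye and forebrain development, where dorsal radial glia, the stem cells lining the ventricles, carry it, and some neurons keep it. GLI3 is a zinc finger transcription factor at the end of the Hedgehog pathway. Without Hedgehog signal the receptor PTCH1 holds SMO back, and GLI3 is cut to a repressor that shapes the dorsal forebrain and the midbrain. Both genes mark progenitors rather than mature neurons in the textbook picture of the embryonic brain.

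Embryo 1 held 41868023 UMIs over 9241 barcodes and embryo 2 held 38077767 over 9685. Cells with at least 200 detected genes numbered 8408 and 9327, with medians of 3539 and 3169 UMIs. The libraries shared 18 barcodes. Both members are sparse in such data. PAX6 had 790 UMIs in embryo 1 and 753 in embryo 2, seen in 6.77% and 5.52% of the cells. GLI3 had 426 and 323 UMIs, in 4.38% and 3.01% of the cells. Levels are UMIs per 1000000 UMIs (CPM) of a cluster or class, and the number of UMIs behind each limits its precision. How fully the transcripts of each gene were captured and assigned to its model is not known, so the level of one gene is not compared with that of the other.

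The 17735 cells fell into 17 clusters, built without PAX6 and GLI3 so that neither gene shaped the groups in which it is described. Names rest on markers that were at least 2 times higher in a cluster than elsewhere and seen in 10% or more of its cells. Clusters 4 and 9 earned the name dividing (2553 cells together) with 14 and 16 such markers, among them MKI67 and TOP2A. Clusters 2 and 12 earned the name radial glia-like (2234 cells) with 8 and 10 markers, among them VIM, SLC1A3 and FABP7. Neuron-like cells numbered 9591 in 6 clusters.

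The label of non-dividing progenitors holds only in part. MKI67, a protein of cycling nuclei, stood at 273 CPM in cluster 2 and 65.6 in cluster 12, against 3180 in cluster 4 and 2934 in cluster 9. The S-phase genes PCNA, MCM5 and TYMS were nevertheless markers of cluster 2, with PCNA at 38.1 CPM there and 39.6 in cluster 4. Radial glia-like therefore means cells low in MKI67 and not cells outside the cycle. Cluster 5 (1425 cells), led by CDKN1C, PAX3, FZD10 and FST, had only 2 radial glia markers and 2 neurogenic progenitor markers and stayed unnamed. In the radial glia-like class PAX6 stood at 52.9 CPM in embryo 1 (278 UMIs) and 58.4 in embryo 2 (281 UMIs). In the dividing class it stood at 41.8 and 41.9 CPM (325 and 276 UMIs), and in the neuron-like cells at 12.8 and 10.6 (150 and 177 UMIs). Both progenitor classes were above the neurons in both embryos, with no overlap, and the radial glia-like class lay above the dividing one.

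GLI3 followed the same order. It reached 29.7 CPM (156 UMIs) and 26.0 (125 UMIs) in the radial glia-like class of embryos 1 and 2. The dividing class had 21.9 CPM (170 UMIs) and 16.1 (106 UMIs), and the neuron-like cells had 3.07 (36 UMIs) and 2.76 (46 UMIs). As for PAX6, no value of a class overlapped with those of the others. In each of these groups GLI3 was lower in embryo 2 than in embryo 1. Within the neurons, cluster 0 went the other way, with 3.87 and 5.64 CPM.

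**Figure D1:**
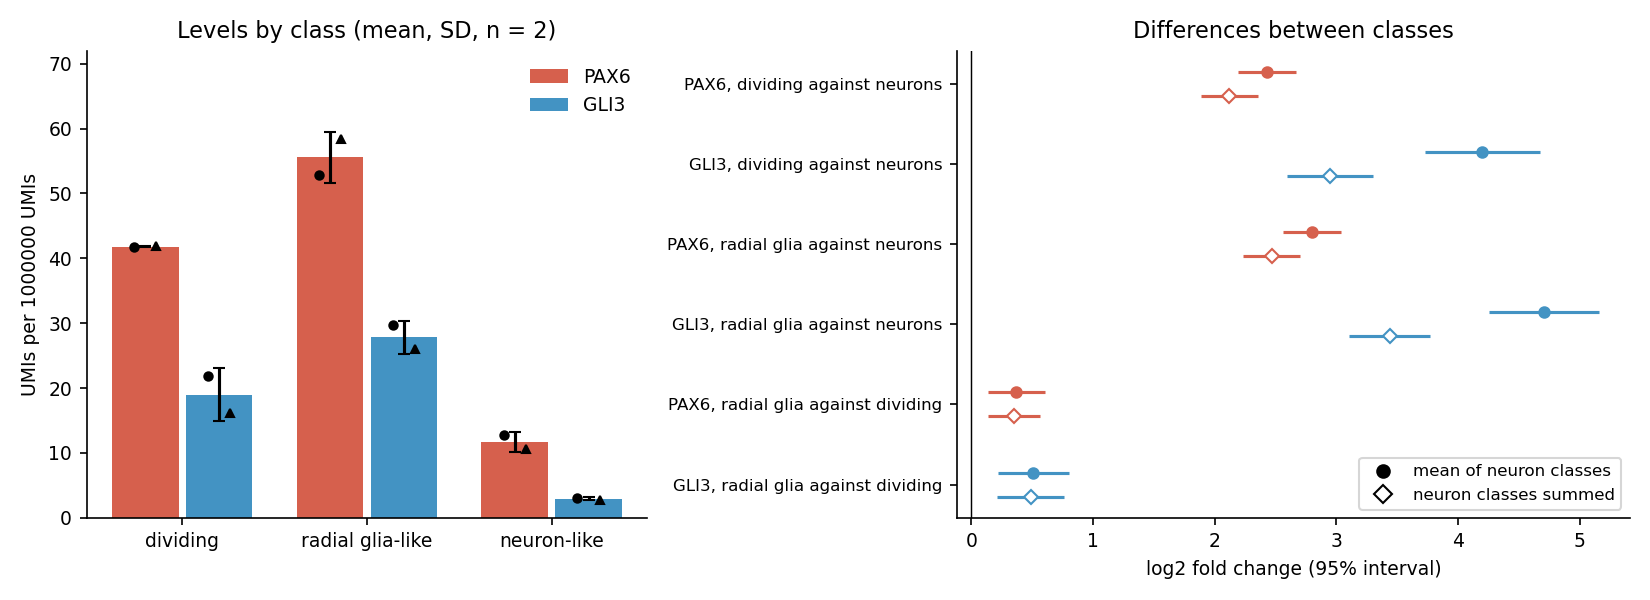
Left, levels of PAX6 (red) and GLI3 (blue) in UMIs per 1000000 UMIs in dividing, radial glia-like and neuron-like cells: bars are the mean of the 2 embryos, error bars the SD, circles embryo 1 and triangles embryo 2. Right, log2 fold changes between classes with 95% intervals, against the mean of the neuron classes (filled circles) or against all neurons summed (open diamonds): both genes lie far above 0 against neurons, GLI3 less so with neurons summed, and between 0.35 and 0.51 for radial glia-like against dividing cells.

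The UMIs of each class were summed within each embryo and tested across all genes with the quasi-likelihood test of edgeR, p-values being adjusted by the Benjamini-Hochberg method and the embryo kept as a block. A gene was called at an adjusted p of at most 0.05. The 6 neuron classes entered with equal weight. Against their mean, PAX6 was higher in dividing cells by 2.43 on the log2 scale (SE 0.12, adjusted p = 1.47e-18) and in radial glia-like cells by 2.80 (SE 0.12, adjusted p = 5.89e-20). GLI3 was higher by 4.20 (SE 0.24, adjusted p = 1.51e-16) and by 4.71 (SE 0.23, adjusted p = 3.50e-18). Of 9401 genes tested, 35.9% were called higher and 32.3% lower in dividing cells than in neurons, and 34.4% higher and 29.7% lower in radial glia-like cells, so the call alone does not set the members apart.

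The size of the GLI3 differences depends on how the neurons are combined, because 1 neuron class had 0 GLI3 UMIs in both embryos. With all neurons of an embryo summed, an alternative chosen after seeing the data, GLI3 was higher by 2.95 in dividing cells (SE 0.18, edgeR adjusted p = 7.46e-14) and by 3.44 in radial glia-like cells (SE 0.17, adjusted p = 3.69e-15). PAX6 was then higher by 2.12 (SE 0.12, adjusted p = 3.20e-14) and 2.47 (SE 0.12, adjusted p = 2.47e-15). These values are closer to the ratio of the levels given above. With cells grouped by marker sums instead of clusters, the radial glia differences shrank, to 1.03 for PAX6 (SE 0.26, adjusted p = 0.00317) and 2.70 for GLI3 (SE 0.39, adjusted p = 1.21e-05). PAX6 in that radial glia class was 12.9 CPM in embryo 1 and 18.7 in embryo 2, against 12.6 and 10.0 in neurons, so in embryo 1 the levels nearly met. The dividing class then stood higher by 2.01 for PAX6 and 3.33 for GLI3.

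Between the progenitor classes the differences were small. PAX6 was higher in radial glia-like than in dividing cells by 0.37 on the log2 scale (SE 0.12, edgeR adjusted p = 0.0139), and GLI3 by 0.51 (SE 0.15, adjusted p = 0.00769). In this comparison 14.9% of all genes were called higher and 15.4% lower. Without the embryo block neither call held (adjusted p = 0.141 for PAX6 and 0.180 for GLI3), nor with DESeq2 (0.203 and 0.303). The PAX6 difference also turned with the make-up of the classes. Without cluster 9 in the dividing class it was −0.15, with cluster 5 counted as radial glia it was −0.19, and with cells grouped by marker sums instead of clusters it was −0.98 (adjusted p = 9.52e-04). GLI3 was then 0.52, 0.30 and −0.63 (adjusted p = 0.0803). The direction of PAX6 between radial glia-like and dividing cells therefore depends on the make-up of the classes.

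Cluster by cluster, PAX6 and GLI3 did not follow each other. PAX6 was high in cluster 2, the radial glia-like cells led by SFRP1 and FEZF2, with 57.1 CPM in embryo 1 and 65.5 in embryo 2. It was as high in the dividing cluster 4, with 59.3 and 62.5, a range that lies inside that of cluster 2. In cluster 12, the radial glia-like cells with BCAN, VCAM1 and CLU, genes known from maturing glia, it was 31.3 and 30.6. The dividing cluster 9, led by FZD10, a Wnt receptor, had only 8.56 CPM (23 UMIs) and 2.22 (5 UMIs), and the unnamed cluster 5 had 4.28 and 3.46 (11 UMIs each).

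GLI3 was highest in cluster 2 as well, at 33.4 and 31.1 CPM, but the low-PAX6 clusters kept it. Cluster 9 had 20.9 (56 UMIs) and 16.5 (37 UMIs), next to 22.4 (114 UMIs) and 15.9 (69 UMIs) in cluster 4. Cluster 5 had 18.7 and 13.2 (48 and 42 UMIs). Clusters 4, 9 and 5 thus overlapped in GLI3 between embryos, while PAX6 in cluster 4 was many times that of the others. Cluster 12 was lower in GLI3, at 10.4 (9 UMIs) and 6.12 (6 UMIs).

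**Figure D2:**
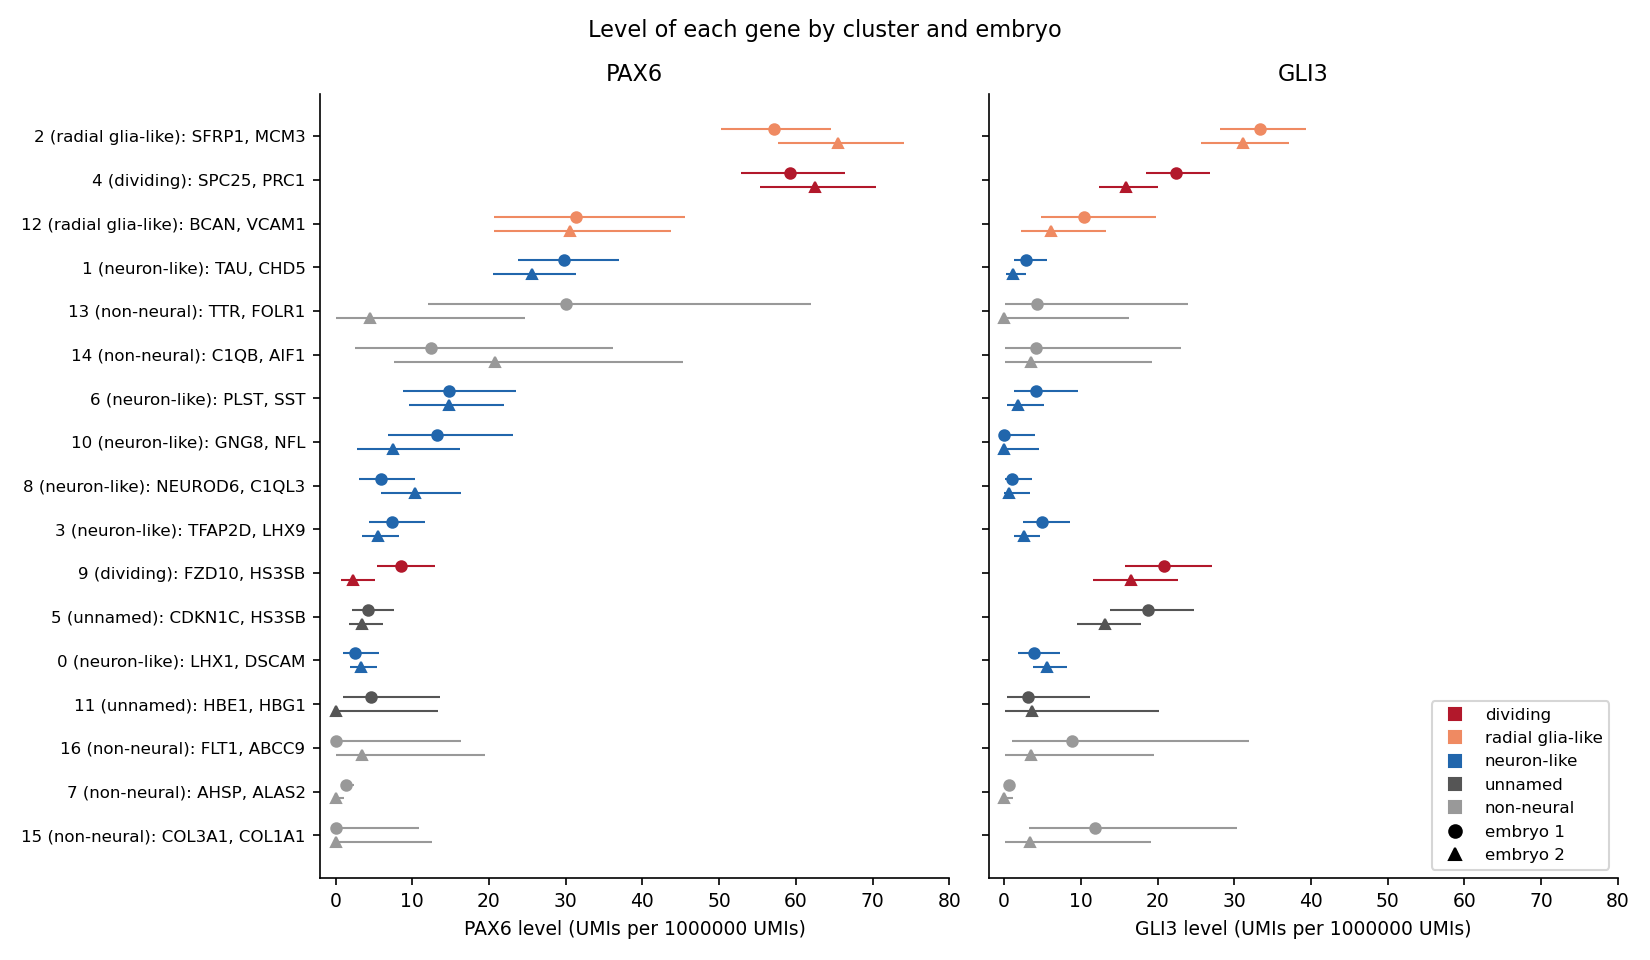
PAX6 (left) and GLI3 (right) in UMIs per 1000000 UMIs in each of the 17 clusters, ordered by the mean PAX6 level and labelled with 2 leading genes; circles are embryo 1, triangles embryo 2, bars exact 95% Poisson intervals and colours the kind of cell. PAX6 peaks in clusters 2 and 4, whereas GLI3 also stays between 13.2 and 20.9 in clusters 9 and 5, where PAX6 is at most 8.56.

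The split can be read as the share of PAX6 among the UMIs of both genes, which may be compared between clusters though not taken as a ratio of transcripts. PAX6 made up 63.1% of 398 UMIs in cluster 2 of embryo 1 (exact binomial 95% interval 58.1 to 67.8) and 67.8% of 370 in embryo 2. In cluster 4 it made up 72.6% (68.0 to 76.8) and 79.7% (75.0 to 83.9). Its share fell outside those intervals in cluster 9, with 29.1% (19.4 to 40.4) and 11.9% (3.98 to 25.6), and in cluster 5, with 18.6% (9.69 to 30.9) and 20.8% (10.8 to 34.1). Intervals here and below cover counting error only.

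The 4787 cells of the named dividing and radial glia-like classes were clustered again, again without the members, into 9 sub-clusters. These are described with no test. The largest, sub-cluster 0 (1398 cells), carried FEZF2 (162 CPM), known from the forebrain, and SFRP1 (2144 CPM), with MKI67 at 246. Sub-cluster 1 (953 cells) had like levels of FEZF2 (155 CPM) and SFRP1 (2152 CPM) but MKI67 at 2975 and mitotic genes such as BUB1 and CCNB1 in front. Of the genes given here, they differ in those of the cell cycle.

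PAX6 was 55.0 CPM in embryo 1 and 59.6 in embryo 2 in sub-cluster 0, and 76.4 and 90.2 in the mitotic sub-cluster 1. GLI3 went the other way, from 37.2 and 34.6 in sub-cluster 0 to 28.9 and 26.0 in sub-cluster 1. Neither gene's values overlapped between these sub-clusters. The Poisson intervals of PAX6 were also apart, but those of GLI3 overlapped in both embryos. They were 30.8 to 44.4 and 23.7 to 35.0 in embryo 1, and 27.9 to 42.3 and 20.3 to 33.0 in embryo 2. The direction of GLI3 is therefore within counting error. Among cells with these transcripts, then, PAX6 was higher in the mitotic cells, the reverse of its direction between the whole classes.

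Sub-clusters 3 (566 cells) and 7 (205 cells) came mostly from cluster 9 and carried 6 midbrain markers: EN2, PAX3, PAX7, FZD10, CNPY1 and OTX2. PAX3 stood at 195 and 178 CPM in them and EN2 at 66.4 and 76.6, while FEZF2 was at 4.16 and 5.28. They are called midbrain-like. PAX6 was 10.3 and 2.82 CPM in sub-cluster 3 (19 and 5 UMIs) and 4.17 and 2.23 in sub-cluster 7 (3 UMIs and 1 UMI). GLI3 was 24.5 and 15.8 in sub-cluster 3 (45 and 28 UMIs) and 12.5 and 13.4 in sub-cluster 7 (9 and 6 UMIs). PAX6 in both was below every value of sub-clusters 0 and 1. GLI3 in sub-cluster 3 lay below the values of sub-cluster 1, but their Poisson intervals overlapped in both embryos.

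Sub-cluster 2 (644 dividing cells) carried DLX5 (274 CPM), GAD2 (523 CPM), DLX1, DLX2 and NKX2-1, genes of the ventral forebrain and of inhibitory neurons, with STMN2 at 929. The diencephalon markers SIX3 (47.4 CPM) and TCF7L2 (166 CPM) passed the same rule. PAX6 was 17.1 and 28.5 there, and GLI3 6.68 and 9.85. Both were below every value of sub-clusters 0 and 1. Sub-cluster 5 (328 cells) was led by EOMES (80.1 CPM), a marker of intermediate progenitors of the cortex, with NEUROG1 at 40.2 and MKI67 at 90.2. Its PAX6 was 52.7 and 80.2 CPM (36 and 51 UMIs), a range that takes in that of sub-cluster 0, but its GLI3 was only 17.6 and 11.0 (12 and 7 UMIs), below both values of sub-cluster 0.

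Sub-cluster 4 (395 cells), with BCAN at 97.4 CPM and CLU at 514, had PAX6 at 39.1 and 32.1 and GLI3 at 13.4 and 4.87 (12 and 5 UMIs). It also carried the midbrain markers FZD10 (159 CPM) and CNPY1 (88.7 CPM) and the rhombic lip marker ZIC4 (35.1 CPM). Genes of other regions were there too, with FEZF2 at 41.5, SIX3 at 16.2, NKX2-1 at 10.0 and HOXA2 at 9.82 CPM, and PAX3 was at 60.3. Low PAX6 was thus not shared by every sub-cluster with midbrain markers. The summed level does not show whether the cells of sub-cluster 4 with midbrain markers were those with PAX6. The remaining sub-clusters are small or of odd quality. Sub-cluster 6 (247 cells) had a median of 1017 UMIs per cell, with PAX6 at 71.3 and 50.7 and GLI3 at 20.4 and 0. Sub-cluster 8 (51 cells) had 43.4% haemoglobin UMIs, with PAX6 at 20.4 and 52.9 and GLI3 at 17.5 and 22.7, from 3 to 7 UMIs each. No sub-cluster is named for the dorsal telencephalon: EMX2 was at 19.0 CPM in embryo 1 (13 UMIs) but 3.15 in embryo 2 (2 UMIs) in sub-cluster 5, its mean was at most 3.21 in sub-clusters 0 to 4, and no gene model bears the names LHX2 or EMX1.

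**Figure D3:**
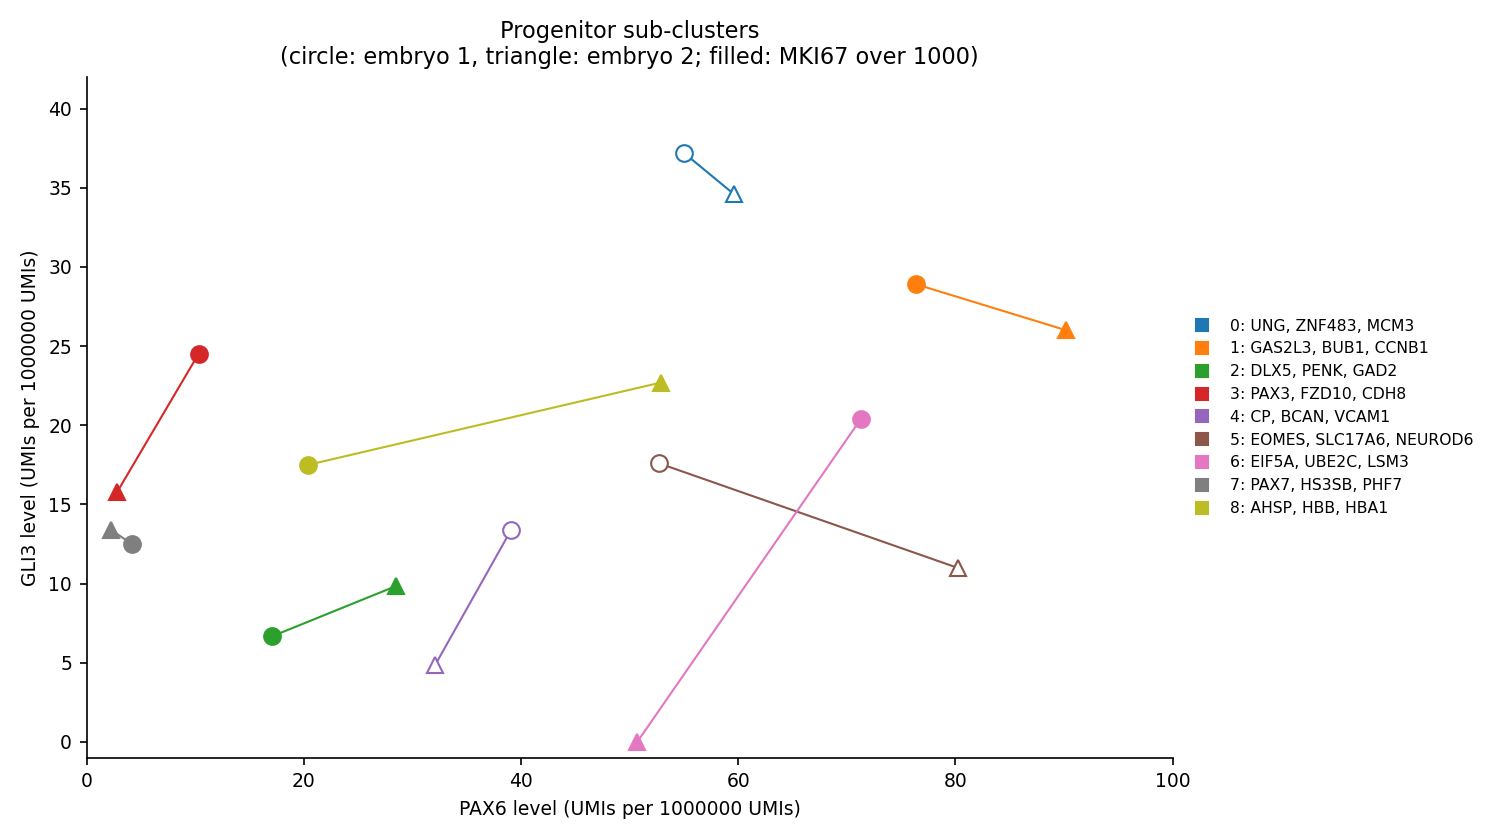
Level of GLI3 against that of PAX6, both in UMIs per 1000000 UMIs, in the 9 progenitor sub-clusters (colours, with 3 leading genes); circles are embryo 1, triangles embryo 2, joined by a line, and filled symbols mark sub-clusters with MKI67 above 1000. Sub-clusters 3 and 7 lie at the left with PAX6 of at most 10.3 and GLI3 of 12.5 to 24.5, and sub-cluster 1 lies to the right of and below sub-cluster 0.

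Among neurons, PAX6 was not evenly spread. It was highest in cluster 1 (2296 cells), with 29.8 CPM in embryo 1 (84 UMIs) and 25.6 in embryo 2 (90 UMIs). The leading genes of cluster 1 include DLX5, and it carried the striatal-type markers ISL1, FOXP1, FOXP2 and SIX3. It also carried the granule-type markers CBLN1 and ZIC1 and the inhibitory markers GAD1 and GAD2, and was named only as neurons of any type. Nascent inhibitory neuron-like cells (cluster 6, with DLX1, DLX2 and DLX5) had 14.8 in both embryos (18 and 25 UMIs). Cluster 10, with GNG8, NEFM, TCF7L2 and ZIC2, had 13.2 and 7.47 (12 and 6 UMIs in 8 cells). Cortical excitatory neuron-like cells (cluster 8, with NEUROD6 and TBR1) had 5.94 and 10.3, and midbrain or thalamic excitatory neuron-like cells (cluster 3) had 7.36 and 5.48, so these neighbours in the order overlap. Inhibitory neuron-like cells of midbrain type (cluster 0, with GAD1, GATA3 and OTX2) came last with 2.58 and 3.34 (6 and 16 UMIs).

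In the same edgeR fit each neuron class was set against the remaining neuron classes, weighted equally. PAX6 was higher in cluster 1 by 1.73 on the log2 scale (SE 0.17, adjusted p = 7.73e-10), where 20.3% of all genes were called in either direction. It was higher in nascent inhibitory neuron-like cells by 0.76 (SE 0.25, adjusted p = 0.0249, background 23.8%), a call that was lost with all named classes in the fit (adjusted p = 0.0668). That size rests on where the class was bounded: in the matching class it was 1.75 with at least 1000 genes per cell, 1.45 at a resolution of 1.0 and 1.50 with 30 components, and these classes shared 0.295, 0.765 and 0.426 of the cells of both versions together. It was lower in inhibitory neuron-like cells of midbrain type, where it fell by 1.91 (SE 0.27, adjusted p = 9.40e-07, background 31.4%). The other 3 classes did not pass: −0.65 in midbrain or thalamic neurons (SE 0.24, adjusted p = 0.0654, background 13.9%), −0.11 in cortical neurons (SE 0.28, adjusted p = 0.846, background 24.5%) and 0.18 in cluster 10 (SE 0.34, adjusted p = 0.810, background 15.1%).

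The cortical value depended on where the class was bounded. With cells of at least 1000 genes, 30 components or the highest doublet scores left out, PAX6 in the matching class became 1.46, 0.73 and 1.33 (edgeR adjusted p = 5.61e-07, 0.00820 and 1.39e-05). The matching classes held 1001, 957 and 989 cells in place of 804, and shared 0.668, 0.802 and 0.703 of the cells of both versions together. At a resolution of 1.0 cluster 1 split, and its part led by DLX5 and VCAN (1137 cells) had PAX6 at 40.5 and 29.3 CPM, while a part led by ARHGDIG and SCN2A (916 cells) had 19.3 and 17.4.

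GLI3 in neurons was close to the limit of these data. Its levels ran from 3.87 and 5.64 CPM in inhibitory neuron-like cells of midbrain type (9 and 27 UMIs) and 4.91 and 2.62 in midbrain or thalamic neurons (12 and 11 UMIs) down to 0.990 and 0.603 in cortical neurons (2 UMIs and 1 UMI). Cluster 10 had 0 UMIs in 462 cells, which allows up to 3.30 and 3.73 CPM in embryos 1 and 2. Those limits lie above both values of cortical neurons and of cluster 1 (2.84 and 1.14), so neither a fold nor a direction is given for cluster 10. The fit called GLI3 higher in inhibitory neuron-like cells of midbrain type (log2 fold change 2.50, SE 0.50, adjusted p = 1.85e-04) and in midbrain or thalamic neurons (1.90, SE 0.59, adjusted p = 0.0258), but both sizes take in the fitted value of cluster 10. Without cluster 10 the first was 1.37 (SE 0.35, adjusted p = 0.00316) and the second was 0.74 (SE 0.39, adjusted p = 0.227). With a single embryo the first was 1.69 in embryo 1 and 3.06 in embryo 2.

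The share of cells with a UMI sets these levels against free RNA, which droplets take up from broken cells. Erythroid-like cells, which should hold neither transcript, had a PAX6 UMI in 1.41% of 781 cells of embryo 1 at a median depth of 12416 UMIs, and in 0 of 231 cells of embryo 2, which allows up to 1.30%. Their GLI3 shares were 0.768% and 0. In the neuron-like cells, at median depths of 2844 and 2651 UMIs, PAX6 was seen in 2.95% (95% interval 2.44 to 3.54) and 2.29% (1.92 to 2.71). Both were above the erythroid shares, but the interval of embryo 1 overlaps the erythroid one (0.705 to 2.51). Microglia-like cells, the other class taken as a level of free RNA, had PAX6 in 2.11% (0.256 to 7.40) and 3.17% (0.387 to 11.0). Per UMI they stood at 12.4 CPM (2.55 to 36.2) and 20.8 (7.64 to 45.3), from 3 and 6 UMIs. Those intervals take in the neuron-like shares and levels (12.8 and 10.6 CPM). By these intervals alone, PAX6 in neurons as a whole was not told apart from the level of microglia-like cells. Those microglia-like UMIs lay in only 2 cells of each embryo, so that level is itself poorly known. Inhibitory neuron-like cells of midbrain type stood at 2.58 CPM (0.946 to 5.61) and 3.34 (1.91 to 5.43). Both intervals lay below the level of all neuron-like cells of the same embryo. How much of the PAX6 in neurons was free RNA was not tested. GLI3 was seen in 0.949% (0.665 to 1.31) and 0.759% (0.552 to 1.02) of the neuron-like cells. These intervals take in the erythroid share of embryo 1, and the limit of embryo 2 is too wide to set against them. With each cell thinned to 2000 UMIs, GLI3 was in 0.397% of erythroid-like cells of embryo 1 (0.0820 to 1.16) and in 0.618% of the neuron-like ones (0.361 to 0.988). Per UMI the neurons stood at 3.07 and 2.76 CPM and the erythroid-like cells at 0.654 (0.240 to 1.42) and 0. By the share of cells, GLI3 in neurons was thus not told apart from free RNA. Its level per UMI was above that of the erythroid-like cells of the main setting. With at least 1000 genes per cell, the erythroid-like cluster (171 cells) had GLI3 at 5.11 and 5.99 CPM (8 and 4 UMIs). The mean of the neuron-like cells was then 3.39. The main erythroid-like class of 1012 cells had only 6 and 0 GLI3 UMIs. The 171-cell cluster therefore took in cells of other classes, and its level cannot be read as free RNA. In the main setting microglia-like cells had 4.12 and 3.47 CPM, from 1 UMI each. The differences between neuron classes above carry these limits. Of the neuron classes in embryo 1, only cluster 1, at 5.63% (4.30 to 7.21), had an unthinned PAX6 share clear of the erythroid interval. The wider microglia interval took in that share. Midbrain or thalamic neurons, at 2.50% and 1.50%, and cluster 10, at 2.03% and 1.39%, overlapped the erythroid values in both embryos by their intervals. The PAX6 shares in inhibitory neuron-like cells of midbrain type, 0.622% and 0.728%, were not above the erythroid share of embryo 1. By the share of cells, cluster 5, at 1.50% and 1.19%, was no higher than the erythroid cells beyond counting error. The erythroid-like cells were also the deeper ones, which raises their shares. With each cell thinned to 2000 UMIs, embryo 1 had PAX6 in 0.530% of erythroid-like cells (0.145 to 1.35). Its neuron-like cells had 1.85% (1.38 to 2.43). In embryo 2 the shares were 0, which allows up to 1.32%, and 1.54% (1.19 to 1.97). Per UMI in embryo 1, clusters 1 (23.8 to 36.9 CPM), 6 (8.80 to 23.5) and 10 (6.82 to 23.1) lay above the erythroid interval. Clusters 3 (4.36 to 11.6) and 8 (3.07 to 10.4) did too. Per UMI, PAX6 in embryo 1 was 4.28 CPM in cluster 5 (2.14 to 7.66) and 2.58 in midbrain inhibitory neurons (0.946 to 5.61). The erythroid interval there, 0.755 to 2.42 around 1.42, overlapped both. In embryo 2 they were 3.46 (1.73 to 6.19) and 3.34 (1.91 to 5.43), above the erythroid 0, which allows up to 0.942 CPM. With at least 1000 genes per cell, PAX6 was 10.2 and 8.99 CPM in the erythroid-like cluster (16 and 6 UMIs, against 13 and 0 in the main class). That was above its 3.22 and 3.64 in midbrain inhibitory neurons. As that cluster took in cells of other classes, these values do not set a level of free RNA.

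In progenitors the shares were far higher. PAX6 was seen in 17.6% and 19.6% of radial glia-like cells and in 15.1% and 14.7% of dividing cells, and GLI3 in 11.5% and 10.3% and in 9.64% and 7.86%. Dividing cells were deeper (medians of 4738 and 4853 UMIs) than radial glia-like cells (3873 and 3978). With each cell thinned to 2000 UMIs, PAX6 was in 8.60% and 10.3% of radial glia-like cells, 7.11% and 6.26% of dividing cells and 1.85% and 1.54% of neurons. GLI3 was then in 4.97% and 5.13%, 3.92% and 2.66%, and 0.618% and 0.523%. Thinning left out 154 and 60 radial glia-like, 197 and 78 dividing and 1044 and 1781 neuron-like cells, and it kept the order of the classes for both genes in both embryos.

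Some progenitors held both transcripts. Without thinning, 44 of 1010 cells of cluster 2 in embryo 1 had UMIs of both genes and 38 of 834 in embryo 2, where the product of the single shares gives 24.2 and 22.0 cells. In the dividing cluster 4 there were 41 of 982 and 27 of 790 cells, beside products of 18.3 and 11.6. GLI3 was thus seen in 23.4% and 20.9% of the PAX6 cells of cluster 2 and in 10.5% and 9.66% of its other cells. Deeper cells show more of both genes, and at 2000 UMIs per cell the counts were 5 and 10 against 4.45 and 5.97 in cluster 2, and 8 and 6 against 3.14 and 2.18 in cluster 4. The counts stayed above the product in both clusters and both embryos, but they are few. The product takes the cells of a cluster as alike, and those of cluster 4 were not. Sub-clusters 1 and 2 came mostly from it (96.1% and 89.4%), with mean PAX6 at 83.3 and 22.8 CPM and mean GLI3 at 27.5 and 8.27. Pooling such parts lifts the count above the product, and how much it did so was not tested. At 2000 UMIs both genes were in 0.611% of the dividing and 0.752% of the radial glia-like cells (means of the embryos). With the highest doublet scores left out these shares were 0.216% and 1.55%, a fall and a rise. That alternative also formed the classes anew and drew the 2000 UMIs again, so more than the doublets changed. The part of doublets in the cells with both was not tested. In cluster 9 only 2 cells and 1 cell held both, beside products of 1.95 and 0.468.

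**Figure D4:**
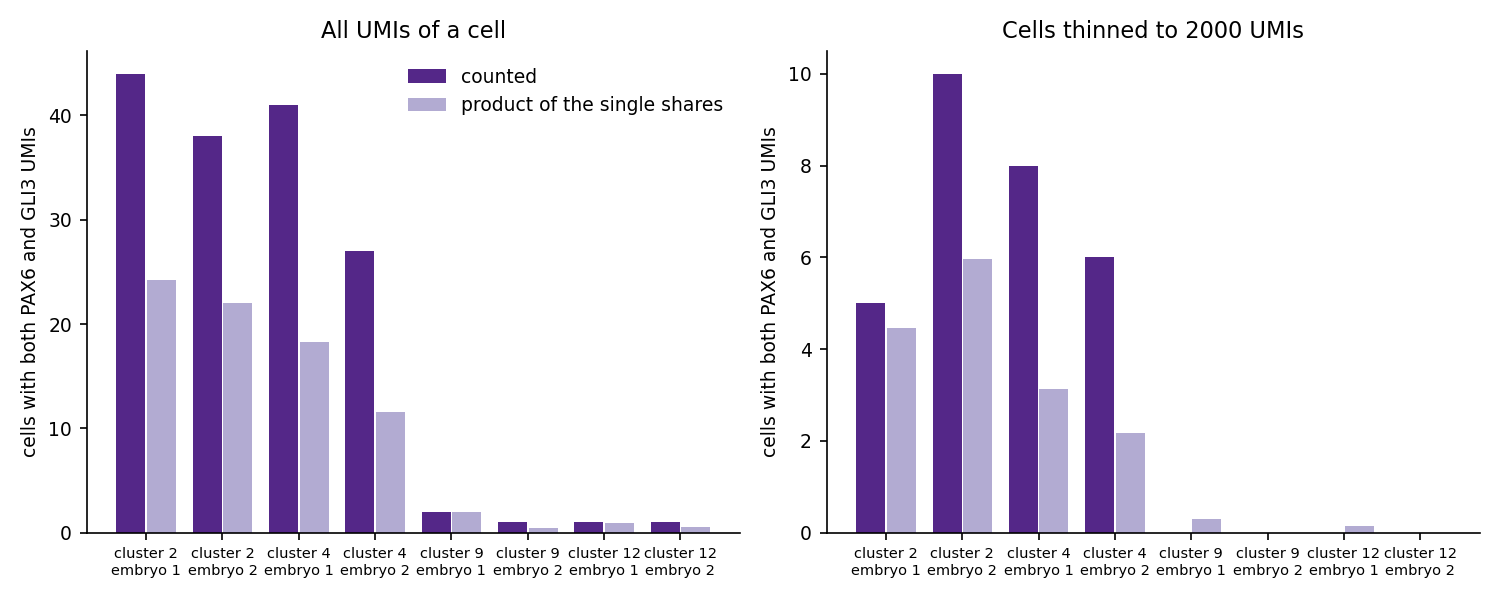
Number of cells with UMIs of both PAX6 and GLI3 (dark bars) beside the number given by the product of the shares of each gene alone (light bars), per cluster and embryo, with all UMIs (left) and with cells thinned to 2000 UMIs (right; the vertical scales differ). In clusters 2 and 4 the dark bars stand above the light ones in both embryos.

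Outside the neural classes the members rest on a handful of UMIs. Meningeal fibroblast-like cells (113) had no PAX6 UMI and 5 of GLI3, and endothelial-like cells (88) had 1 and 3. Choroid plexus-like cells (162) had 7 PAX6 UMIs in embryo 1 and 1 in embryo 2, or 30.1 and 4.43 CPM. Microglia-like cells (158) had 9 PAX6 UMIs in only 4 cells. No order is read from these. Across the clusters with at least 20 UMIs of a gene, GLI3 was higher in embryo 1 in 5 of 6, and PAX6 in 5 of 10.

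The genes around GLI3 in the Hedgehog pathway were taken as a list of 20, of which 17 are named in the annotation and 9 passed the filter on low counts. SHH, IHH and GLI1 have no gene model of that name. In dividing cells against neurons 7 of the 9 were called higher, 1 lower (SPOP, named after its value was seen) and 1 was not called, beside 35.9% of all genes called higher and 32.3% lower, with a median log2 fold change of 2.07 beside 0.01 over all genes. In radial glia-like cells 6 were higher, 1 lower and 2 not called, beside 34.4% and 29.7%, with a median of 2.29 beside 0.02. The filter lets in a gene through 1 class in which it is high, and a gene near 0 in neurons can hardly be called lower in progenitors. With neurons summed, which let 14 of the list through the filter, the medians were 1.51 and 1.53. Then 9 were higher and 1 lower in dividing cells, and 10 and 1 in radial glia-like cells. Of all 10521 genes tested there, 6994 and 6663 were called in either direction. That background is not split by direction, so the counts of the list with neurons summed do not set it apart. Of the 9 genes tested at first, PTCH1 lost its call in dividing cells (0.39, edgeR adjusted p = 0.0667).

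BOC, a co-receptor for Hedgehog ligands, stood at 102 ± 4.23 CPM in dividing cells (SD, n = 2 embryos), 79.9 ± 13.7 in radial glia-like cells and 15.4 ± 1.77 in neurons, and was higher in dividing cells by 3.08 (SE 0.10, edgeR adjusted p = 1.08e-23) and in radial glia-like cells by 2.69 (SE 0.11, adjusted p = 1.30e-20). HHIP, which binds and withholds the ligands, had 6.33 ± 2.22, 5.81 ± 1.49 and 0.472 ± 0.0410 CPM. EVC and EVC2, partners of SMO in the cilium, had 7.73 ± 0.0233 and 3.65 ± 0.653 CPM in dividing cells, 11.9 ± 3.33 and 3.47 ± 0.204 in radial glia-like cells and 2.04 ± 0.803 and 0.644 ± 0.232 in neurons. With neurons summed, since some neuron classes had no UMI of HHIP or EVC2, HHIP was higher in dividing cells by 3.84 (SE 0.33, adjusted p = 1.59e-10) and EVC2 by 3.01 (SE 0.39, adjusted p = 1.86e-07). Between the progenitor classes 2 of the 9 were higher in radial glia-like cells and 2 lower, beside 14.9% and 15.4% of all genes, so these counts do not set the list apart. PTCH1, the receptor and a target of the pathway, was higher by 0.59 (SE 0.19, adjusted p = 0.0166) and EVC by 0.59 (SE 0.21, adjusted p = 0.0294). DISP1, which releases ligand, fell by 0.51 (SE 0.19, adjusted p = 0.0390) and BOC fell by 0.40 (SE 0.11, adjusted p = 0.00390).

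Beside PAX6, 22 transcription factors of neural progenitors were listed, of which 19 are named in the annotation and 14 were tested. LHX2, POU3F4 and ID4 have no gene model of that name. Against neurons, 10 were called higher, 2 lower (POU3F2 and NR2F2) and 2 not called, both in dividing and in radial glia-like cells, with medians of 2.11 and 2.58. Over all genes 35.9% were called higher and 32.3% lower in dividing cells, and 34.4% and 29.7% in radial glia-like cells. The limit from the filter given for the Hedgehog list holds here too. With neurons summed (16 tested) the medians were 0.92 and 1.54, beside −0.01 over all genes in both. Of the 14 factors 7 kept a call of higher in dividing cells and 8 in radial glia-like cells, and 2 and 3 were called lower. Of all 10521 genes tested there, 6994 and 6663 were called in either direction. That background is not split by direction, so these counts do not set the list apart. The calls of EMX2 (0.51, edgeR adjusted p = 0.320), MEIS1 (0.24, adjusted p = 0.233) and MEIS2 (−0.04, adjusted p = 0.778) were lost in dividing cells, and that of MEIS1 in radial glia-like cells (0.36, adjusted p = 0.10). MEIS2 turned there from 0.56 to −0.37 (adjusted p = 0.00433 and 0.00832). EMX2, MEIS1 and MEIS2 were named after their values were seen.

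TFAP2C had 10.5 ± 3.69 CPM in radial glia-like cells, 4.53 ± 2.32 in dividing cells and 0.298 ± 0.120 in neurons, and TCF7L1, a factor that responds to Wnt, had 17.0 ± 1.21, 17.6 ± 4.32 and 1.35 ± 0.136. TCF7L1 was higher than in neurons by 4.06 in radial glia-like cells (SE 0.27, edgeR adjusted p = 1.02e-14) and by 4.16 in dividing cells (SE 0.25, adjusted p = 4.28e-16). SALL1 had 25.9 ± 6.94, 17.5 ± 0.896 and 2.83 ± 0.642 CPM in these classes. SALL3 had 4.76 ± 0.263 and SOX1 4.23 ± 1.28 CPM in radial glia-like cells. In radial glia-like against dividing cells TFAP2C was higher by 1.17 (SE 0.26, adjusted p = 7.63e-04), NR2F2 by 0.56 (SE 0.19, adjusted p = 0.0244) and SALL1 by 0.53 (SE 0.15, adjusted p = 0.00647), while POU3F2 fell by 0.42 (SE 0.09, adjusted p = 3.60e-04), and the other 10 were not called. These 3 higher and 1 lower of 14 stand beside 14.9% and 15.4% of all genes.

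The genes most like each member were sought over 34 points, the 17 clusters in both embryos, by Pearson's r of log2(CPM + 5) among 8205 genes with at least 200 UMIs. The points share libraries and cell types, and the values are descriptions. Nearest to PAX6 were DIRAS3 (r = 0.776), MT3 (0.771), a radial glia marker, PCDH11X (0.767), TMEM132B (0.754) and XYLT1 (0.751). Nearest to GLI3 were TIMELESS (0.877), known from the replication fork, PROM1 (0.875), a membrane protein of neural stem cells, AASS (0.862), BRCA2 (0.849), a DNA repair gene, and MPIP2 (0.827). The members themselves reached 0.382 with each other. The genes named were picked as the highest, so every other gene lies below them, and the rank of 0.382 was not worked out.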

How the data were processed

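For each embryo the authors deposited raw UMI counts per gene model and barcode, without normalization. Per the labels and the study's methods, reads were processed with Cell Ranger 3.1.0 against the TS_2.0 assembly and its annotation, and the barcodes are those it called as cells. The reference table held here is of another assembly, so no coordinates and no sequences are given.

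Python 3.11.15 and scipy 1.17.1 served for the tables. Cells with at least 200 genes were kept (17735 of 18926 barcodes), scaled to 10000 UMIs, log-transformed and clustered (2000 variable genes without PAX6 and GLI3, 20 components, 20 neighbours, leidenalg 0.10.2 at resolution 0.5). Clusters were named from at least 3 markers of a type. Doublets were kept, and as an alternative the cells with the highest Scrublet scores (scanpy 1.11.5; 0.8% per 1000 cells, 1262 cells) were left out. UMIs were summed per embryo and class (at least 20 cells each) and compared in R 4.3.3 by edgeR 4.0.16 (filterByExpr, TMM, quasi-likelihood test, common biological coefficient of variation 0.0319). The embryo was a block, because classes of an embryo come from 1 library. A shift shared by all classes of an embryo goes into the block. P-values therefore measure how much the differences between classes vary between these 2 libraries, with the spread partly shared across genes. The procedure was tested on simulated data with large changes in a small part of the genes, the same variation for every gene and no difference between embryos. That setting does not cover small differences or data in which most genes differ. The limit for a count of 0 is 3 counts of the total. Intervals of levels and shares are exact Poisson or binomial at 95%. Those of fold changes are normal intervals from the SE, which for edgeR was worked back from the fold change and the test statistic.

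Named genes were both members, from each list and contrast up to 4 called genes with the largest change in the same direction in both embryos, and the 5 genes most like each member. Members, lists and tests were chosen with earlier results of these data known. The reading of GLI3 and PAX6 in sub-clusters has no test. Alternatives were other cell filters, resolutions, components and class definitions, RLE, no gene filter, haemoglobin left out, DESeq2 1.42.0, no block, all classes in the fit and each embryo alone. Summing the neurons, changing the FZD10 clusters and leaving out cluster 10 were added after the data were seen.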

Additional observations from a re-analysis of the deposited data

How the results depend on the processing

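Against neurons, both members kept their direction and call in dividing and in radial glia-like cells under every alternative with a test, but by marker sums the sizes fell, in radial glia-like cells from 2.80 to 1.03 for PAX6 and from 4.71 to 2.70 for GLI3. No count of called genes moved by over 1.5 times. Values with no test were 2.95 for PAX6 in dividing cells without cluster 9 and 2.23 in radial glia-like cells with cluster 5 added. With each embryo alone PAX6 ran from 2.41 to 2.47 in dividing and 2.72 to 2.91 in radial glia-like cells, and GLI3 from 4.14 to 4.32 and 4.54 to 4.98. The replicate block comes from the shared library of an embryo.

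Between radial glia-like and dividing cells, PAX6 was 0.23 with at least 1000 genes per cell (adjusted p = 0.189), 0.16 with 30 components (0.321), 0.37 with DESeq2 and without the replicate block, −0.98 by marker sums, −0.15 without cluster 9 and −0.19 with cluster 5. GLI3 was 0.52 with DESeq2, 0.51 without the block, −0.63 by marker sums and 0.30 with cluster 5. DESeq2 called 1729 genes and the fit without the block 1591, against 2852. Each embryo alone gave 0.30 to 0.44 for PAX6 and 0.40 to 0.65 for GLI3. Of the progenitors sorted by marker sums, 1764 lay near the dividing limit, with 1 or 2 UMIs of division genes.

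Among neurons, cortical PAX6 became 1.46, 0.73 and 1.33 with at least 1000 genes, 30 components and the highest doublet scores left out, and cortical GLI3 1.77 with at least 1000 genes (adjusted p = 0.0377). PAX6 in midbrain or thalamic neurons was −2.21 with at least 1000 genes, −1.48 at resolution 1.0, −0.88 with 30 components and −1.11 without the highest doublet scores, all now called. GLI3 there was 1.25, 1.93, 1.76 and 1.35 in the same order, 1.43 with DESeq2, 1.89 without the block and 0.74 without cluster 10, all no longer called. PAX6 in nascent inhibitory neurons was 0.75 with all classes in the fit, and GLI3 2.43 at resolution 1.0. With each embryo alone PAX6 in nascent inhibitory neurons ran from 0.76 to 0.82, and GLI3 in midbrain or thalamic neurons from 1.82 to 2.11. For GLI3 in cluster 10, which had no UMI and so no fold, the adjusted p of 0.0444 became 1.00 at resolution 1.0, 0.115 with DESeq2, 0.0962 without the block and 0.0562 with all classes, and the call is not used. Called genes numbered 1894 without the block in midbrain inhibitory neurons, 849 with DESeq2 and 696 without the block in midbrain or thalamic neurons, and 1087 at resolution 1.0, 1245 with DESeq2 and 1084 without the block in cluster 1. The cause was not tested.

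The PAX6 level of dividing cells was 42.4 CPM without haemoglobin and as a mean over cells, 43.7 with at least 1000 genes, 41.4 at resolution 1.0, 43.9 with 30 components, 41.5 without the highest doublet scores, 38.4 by marker sums and 60.9 without cluster 9. In radial glia-like cells PAX6 was 50.5 with 30 components, 15.8 by marker sums and 36.7 with cluster 5, and GLI3 30.8 without the highest doublet scores, 9.98 by marker sums and 23.5 with cluster 5. In neurons PAX6 was 14.2 with at least 1000 genes and 13.4 at resolution 1.0, and GLI3 3.39, 3.33 and, by marker sums, 2.19.

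Shares of cells move with depth. Unthinned and at 1000 UMIs per cell, PAX6 was in 14.9% and 3.64% of dividing, 18.6% and 5.50% of radial glia-like and 2.62% and 1.09% of neuron-like cells, GLI3 in 8.75% and 1.80%, 10.9% and 2.49%, and 0.854% and 0.382%, and both in 2.75% and 0.0459%, 3.76% and 0.194%, and 0.0527% and 0. With at least 1000 genes, GLI3 was in 5.50% of radial glia-like and 0.775% of neuron-like cells, PAX6 in 2.25% and both in 0.0128% of neuron-like cells. Without the highest doublet scores both were in 0.216% of dividing and 1.55% of radial glia-like cells, GLI3 in 6.68% of radial glia-like and 0.659% of neuron-like cells, and PAX6 in 2.22% of neuron-like cells.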
